A study of Homo sapiens with 9 samples.

Results

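The genes described here are 50 genes of the DNA replication machinery in KG-1a cells, a human line of immature acute myeloid leukemia cells. They were chosen by name, as a list of replication factors; the rule used no measured value, but the list was drawn up with earlier results of these data known. All 50 were found among the 60605 gene identifiers of the deposited count files, and all 50 passed the filter on low counts that left 20655 genes for testing. They comprise the origin recognition complex (ORC1 to ORC6), the licensing factors CDC6, CDT1 and GMNN, and the MCM proteins (MCM2 to MCM8 and MCM10). Further along the pathway stand CDC45 with GINS1 to GINS4, the kinase pair DBF4 and CDC7, and the clamp PCNA with its loader RFC1 to RFC5. The polymerase subunits are POLA1, POLA2, PRIM1, PRIM2, POLD1 to POLD3 and POLE to POLE3, and the list ends with FEN1, LIG1, DNA2, RPA1 to RPA3, TIPIN, TIMELESS, CLSPN and TYMS.

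RNA of PRMT2 knockout (KO) clone 1, PRMT2 KO clone 2 and PRMT2 wild-type (WT) KG-1a cells was sequenced, with 3 libraries per group. Both clones were made by CRISPR/Cas9, and PRMT2 encodes a protein arginine methyltransferase. All groups grew in the same medium with serum and none received a drug. Whether the WT cells came from a single cell is not stated. Each clone is a single isolate, so an effect of PRMT2 loss and a property of that isolate cannot be told apart within it. The labels do not say whether the 3 libraries of a group came from separate cultures, so the p-values below measure the spread between these libraries, which may be technical.

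DNA replication starts at origins, where ORC, CDC6 and CDT1 load the MCM2 to MCM7 ring onto DNA while the cell is in G1 phase. In S phase the kinase of DBF4 and CDC7 helps CDC45 and GINS join that ring as the active helicase, polymerase alpha with primase lays down primers, and polymerases epsilon and delta extend the leading and lagging strands. Many of these genes are known targets of E2F transcription factors and are transcribed most in late G1 and S phase, so their RNA in a culture depends on how many of its cells are cycling. In bulk RNA, a change in the share of cells in S phase and a change in RNA per cell cannot be told apart.

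The libraries held 28006342 to 43149410 counted read pairs on the annotated strand. Every gene of the list had at least 184 counts in each library (PRIM1), and the highest count was 23967 (MCM4). KO clone 1 replicate 1 stood apart: multimapping pairs made up 13.33% of it and 3.86% to 4.51% of the other libraries, and mitochondrial ribosomal RNA took 2.664% of its counts, against 0.003% to 0.009%. PRMT2 itself was at 20.7 ± 0.544 CPM (counts per 1e6 counted pairs, library size scaled) in KO clone 1, 21.2 ± 0.153 CPM in KO clone 2 and 39.4 ± 0.393 CPM in WT (SD, n = 3 libraries each). Of the immature myeloid markers, CD34 was at 713 to 791 CPM in the KO libraries and 612 to 640 CPM in WT, and PTPRC, SPN and MYB were above 250 CPM in every library, whereas CD33 and FLT3 stayed below 1 CPM. KIT separated the clones, with 5.92 to 7.80 CPM in KO clone 1 and 18.8 to 20.9 CPM in KO clone 2, against 5.19 to 7.83 CPM in WT. Epithelial, fibroblast, erythroid, B cell and liver markers were all below 1 CPM.

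The replication genes spanned a wide range of levels, which were compared between genes as CPM per kb of the main annotated transcript. In WT the range ran up to 130 CPM per kb for MCM4, a helicase subunit, and down to 3.81 CPM per kb for RPA3, the smallest subunit of the single-strand binding complex. MCM4, PCNA (the sliding clamp), TYMS (thymidylate synthase), MCM3 and MCM2 were the 5 highest genes in every group, with MCM2 ahead of MCM3 in KO clone 2. PRIM1, POLA2, TIMELESS, MCM8 and RPA3 were the 5 lowest in every group. The median over the 50 genes was 19.1 CPM per kb in KO clone 1, 17.6 in KO clone 2 and 17.0 in WT. Subunits of 1 complex were not at 1 level: in WT, MCM4 stood at 130 ± 2.40 CPM per kb and MCM7, the lowest of the ring in either definition of length, at 36.5 ± 1.79 (SD, n = 3). POLD2, an accessory subunit of polymerase delta, stood at 69.7 ± 5.13 CPM per kb in WT and the catalytic POLD1 at 13.5 ± 0.586; per kb of all exons they were closer, at 14.0 and 9.39. The order of WT levels within polymerase delta, polymerase epsilon, RPA, the Okazaki fragment enzymes and the fork protection genes held when the length of all exons replaced that of the main transcript, while the order within ORC, licensing, the MCM2 to MCM7 ring, CDC45 with GINS, the clamp loader and primase did not. Per kb of all exons, PCNA was highest in WT at 88.0 CPM, ahead of MCM3 at 60.9 and MCM4 at 53.5, and POLA2 was lowest.

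**Figure D1:**
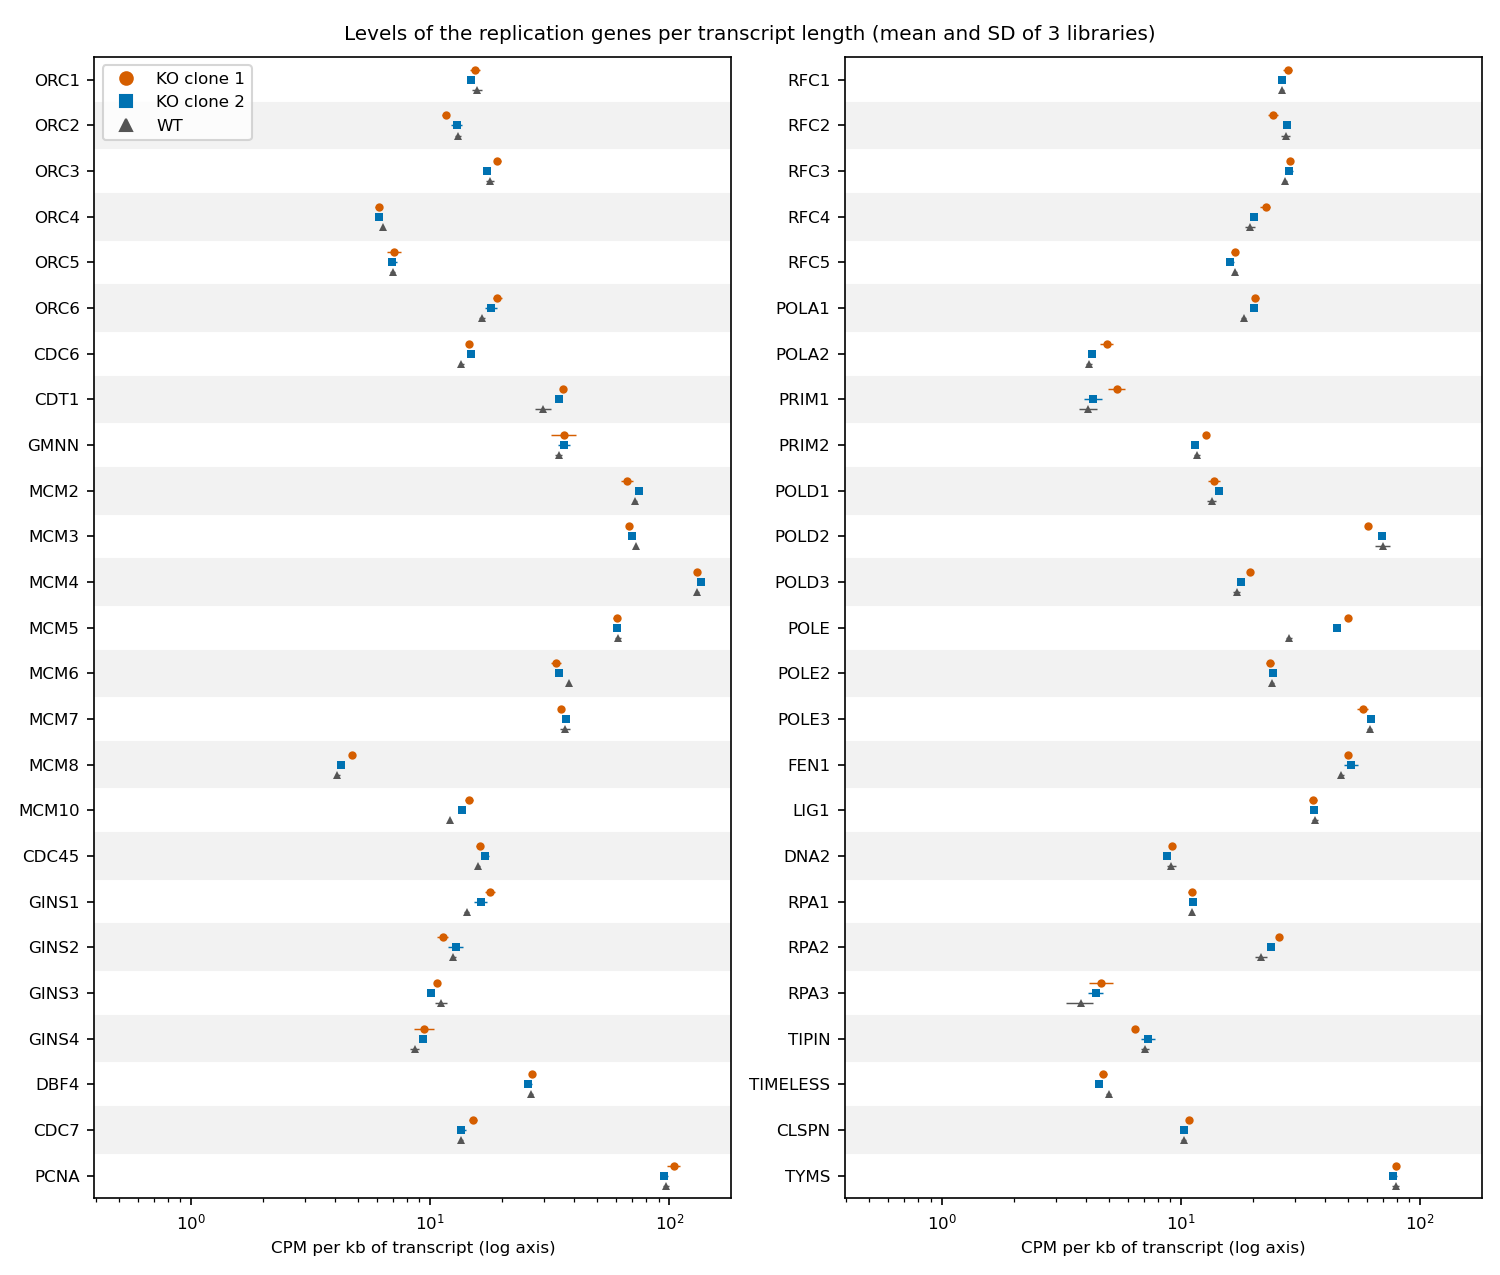
Level of each of the 50 replication genes in CPM per kb of the main annotated transcript (horizontal log axis), with points for the mean and bars for the SD of 3 libraries of KO clone 1, KO clone 2 and WT. On this length scale MCM4 is highest at 130 CPM per kb in WT, and POLE is the gene whose KO points stand farthest from its WT point.

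The first question was whether the machinery as a whole moved with loss of PRMT2. It did not shift as a block: the median log2 fold change of the 50 genes, mean of both KO clones over WT, was 0.03, against 0.00 over all 20655 genes tested and 0.01 over the 10295 genes within the same range of mean CPM. Their median absolute log2 fold change was 0.07, against 0.16 over all genes and 0.10 within that range of CPM. At an adjusted p under 0.05 (edgeR quasi-likelihood test, Benjamini-Hochberg over all genes tested), 14 of the 50 were higher, beside 16.4% of all genes tested. Another 4 of the 50 were lower, beside 18.9% of all genes. Within the same range of CPM, where more genes pass, 24.2% were higher and 23.1% were lower.

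The genes that rose were ORC6, CDC6, CDT1, MCM8, MCM10, GINS1, GINS4, RFC4, POLA1, POLD3, POLE, FEN1, RPA2 and RPA3, so that the MCM2 to MCM7 ring, the kinase pair, the fork protection genes and TYMS were the roles without a riser. Those that fell were ORC2, MCM3, MCM6 and POLD2. Sizes were small: leaving out POLE, the log2 fold changes ran between -0.16 (MCM6) and 0.27 (GINS1). No gene of the list reached the study's fold minimum of an absolute log2 fold change of 1, which 2.0% of all genes passed upward and 4.53% downward. In KO clone 1 the shares of all genes were 2.6% and 4.98%, in KO clone 2 1.83% and 4.13%, and in KO clone 2 against KO clone 1 1.58% and 1.23%, again with no replication gene. POLE, the largest, stayed between 0.72 and 0.75 under the 15 alternative settings, DESeq2 included. All 6 KO libraries lay above all WT libraries for 10 of the 50 genes, beside 11.2% of all genes, and below them for 3, beside 13.7%. For this count of separated libraries no share was taken within the CPM range of the list. Read against the 24.2% higher and 23.1% lower among genes in that range, the count of called risers is near the background and that of called fallers is below it. The range is wide, from 6.55 to 535 CPM, and its genes were not matched in level to the list.

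Taken as 1 pool, summed RNA of the 50 genes came to 4223.1 to 4279.0 CPM in KO clone 1 libraries and 4185.0 to 4258.2 CPM in KO clone 2 libraries, against 3985.6 to 4072.3 CPM in WT libraries. Without POLE the sums were 3821.5 to 3899.3 CPM in KO clone 1, 3825.1 to 3912.0 CPM in KO clone 2 and 3769.7 to 3848.1 CPM in WT, and the ranges overlapped. The spread between libraries of a group was small, with a median coefficient of variation of 3.43% in KO clone 1, 2.49% in KO clone 2 and 2.73% in WT. Calls for lower genes moved with single libraries: 2 of the 4 were called without KO clone 1 replicate 1, KO clone 1 replicate 3, KO clone 2 replicate 3, WT replicate 2 or WT replicate 3, and 1, MCM6, without WT replicate 1. With both clones fitted as a single KO group, 7 genes were higher (CDC6, CDT1, MCM10, GINS1, POLA1, POLE and RPA2) and only MCM6 was lower. The authors' deposited DESeq2 results set KO against WT on counts without regard to strand. In those results the genes called with the single KO group had an adjusted p under 0.05, and no other gene of the list did. The other risers and fallers named above thus missed that threshold there. Without KO clone 1 replicate 1, the library that stood apart, 14 genes were higher for the mean of both clones, 17 in KO clone 1 and 8 in KO clone 2, POLE had a log2 fold change of 0.73, and KO clone 2 against KO clone 1 gave 5 higher and 8 lower genes.

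**Figure D2:**
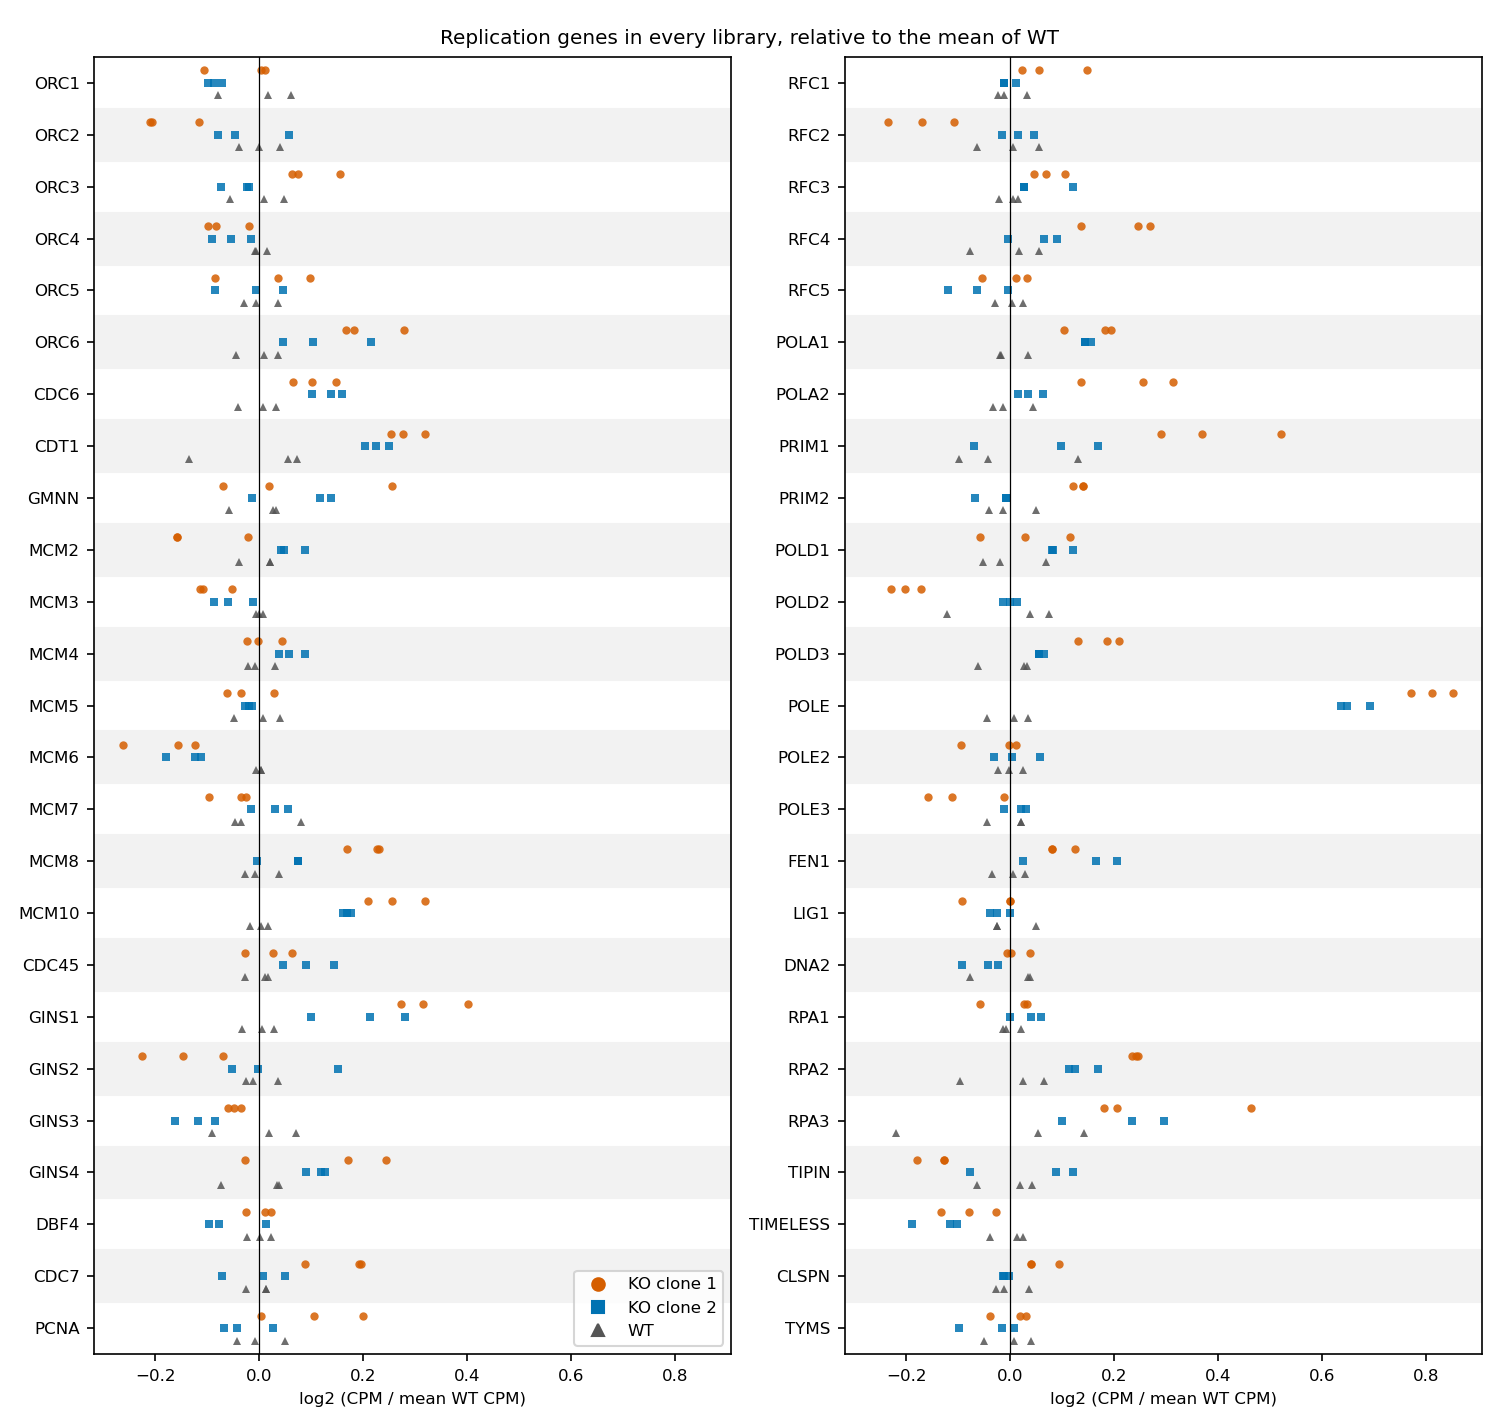
Level of each of the 50 replication genes in every library as log2 of its CPM over the mean CPM of WT (horizontal axis); each point is 1 library of KO clone 1, KO clone 2 or WT. The 6 KO points of POLE lie apart from those of every other gene, and most other points lie within 0.4 of zero.

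POLE was the one replication gene with a large change. It encodes the catalytic subunit of polymerase epsilon, which extends the leading strand and proofreads it, and lies on chromosome 12 at 132623753 to 132687376 (GRCh38, minus strand). POLE had 402, 380 and 391 CPM in KO clone 1 and 360, 346 and 349 CPM in KO clone 2, against 228, 216 and 224 CPM in WT. The groups did not overlap: every KO library was far above every WT library, and every clone 2 library was below every clone 1 library. For the mean of both clones the log2 fold change was 0.74 ± 0.03 (SE; adjusted p = 6.04e-23), a fold of 1.67. KO clone 1 alone gave 0.81 and KO clone 2 alone 0.66. A value this high or higher was found for 751 of 20655 genes (3.64%), and for 142 of 10295 genes (1.38%) within the CPM range of the replication genes. The authors' deposited table, which sets KO against WT, lists POLE at a log2 fold change of 0.7419 with an adjusted p of 1.84e-38.

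The other subunits of the enzyme on the list did not move with POLE. POLE2, its second subunit, had 40.6, 38.1 and 41.0 CPM in KO clone 1 and 42.3, 40.8 and 39.8 CPM in KO clone 2, against 40.0, 41.4 and 40.6 CPM in WT, and the 3 ranges overlapped (log2 fold change -0.01, 95% interval -0.09 to 0.07). POLE3, a histone-fold accessory subunit, averaged 126 ± 7.10 CPM in KO clone 1, 136 ± 1.74 CPM in KO clone 2 and 135 ± 3.46 CPM in WT (SD, n = 3), with a log2 fold change of -0.04 for the mean of both clones (adjusted p = 0.347). In KO clone 1 alone POLE3 fell by 0.09 (adjusted p = 0.0322). The ratio of POLE to POLE2 in CPM per kb was accordingly 2.12 ± 0.05 in KO clone 1 and 1.86 ± 0.03 in KO clone 2, against 1.18 ± 0.05 in WT. Set against POLD1, the catalytic subunit of polymerase delta, POLE stood at a ratio of 3.63 ± 0.196 in KO clone 1 and 3.12 ± 0.0901 in KO clone 2, against 2.11 ± 0.0794 in WT. By CPM per kb POLE ranked 10 among the 50 genes in each clone and 15 in WT.

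No annotated gene overlaps POLE, and 0.0618% of the reads at its exons came from the opposite strand. Its named neighbours within 100 kb, looked up after the POLE values were seen, had smaller log2 fold changes. FBRSL1 (log2 fold change -0.02), PXMP2 (0.11) and GOLGA3 (0.03) missed the test. ANKLE2, which encodes a protein of the nuclear envelope, rose by 0.17 (adjusted p = 1.15e-06), and PGAM5, a mitochondrial phosphatase gene, by 0.10 (adjusted p = 0.0171). Of the unnamed identifiers there, ENSG00000280311 rose by 0.66 (adjusted p = 0.00257) at no more than 2.7 CPM in any library. It lies at 132621999 to 132622973 on the strand of POLE, just past its 3′ end, and rose by 0.775 in KO clone 1 and 0.539 in KO clone 2. ENSG00000280287 rose by 0.20 (adjusted p = 0.0183), and ENSG00000279700 missed the test (-0.105, adjusted p = 0.476). The pseudogene RNA5SP379, below 1 CPM in every library, stood at 0.63 and missed the test (adjusted p = 0.326).

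Past the test in each clone separately and in the same direction stood 8 genes that rose, beside 8.52% of all genes, and 1 that fell, beside 11.0%. The clones share the WT libraries, so this overlap is a description. The shares beside it are over all genes tested. They were not taken within the CPM range of the list, where more genes pass in each clone. Besides POLE, the risers were CDC6 and CDT1 of licensing, MCM10 and GINS1 of helicase activation, POLA1, FEN1 and RPA2. In GRCh38 the licensing genes lie on chromosome 17 at 40287879 to 40304657 (CDC6, plus strand) and chromosome 16 at 88803789 to 88809258 (CDT1, plus strand). MCM10 lies on chromosome 10 at 13161558 to 13211110 and GINS1 on chromosome 20 at 25391008 to 25452700, both on the plus strand. POLA1 lies on chromosome X at 24693873 to 24996986 and FEN1 on chromosome 11 at 61792911 to 61797238, both on the plus strand, and RPA2 on chromosome 1 at 27891524 to 27914746 on the minus strand. MCM6, the gene that fell, lies on chromosome 2 at 135839626 to 135876443 on the minus strand.

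Both licensing factors that help load the MCM ring rose. CDT1 is the factor that brings the ring to ORC. It had 93.9, 98.3 and 95.4 CPM in KO clone 1 and 90.7, 93.6 and 92.0 CPM in KO clone 2, against 82.8, 71.7 and 81.9 CPM in WT. All 6 KO libraries were above all WT libraries, although WT replicate 2 was below the other WT libraries. The log2 fold change was 0.255 ± 0.036 (SE; adjusted p = 2.29e-07). CDC6, the ATPase that joins ORC before the ring is loaded, had 64.4, 66.1 and 68.2 CPM in KO clone 1 and 66.1, 68.8 and 67.8 CPM in KO clone 2, against 61.9, 59.9 and 63.0 CPM in WT. The KO and WT ranges came close without overlapping, and the log2 fold change was 0.12 ± 0.03 (adjusted p = 0.00515). GMNN, which encodes the inhibitor of CDT1, had 41.4 to 51.8 CPM in KO clone 1 and 43.0 to 47.8 CPM in KO clone 2, against 41.7 to 44.4 CPM in WT, and missed the test (log2 fold change 0.08, adjusted p = 0.308). The call of CDC6 in KO clone 1 alone (adjusted p = 0.0347) was lost without KO clone 1 replicate 2 (0.0622), KO clone 1 replicate 3 (0.177), WT replicate 1 (0.055) or WT replicate 2 (0.131). It was also lost with DESeq2 (0.0586), with no filter on low counts (0.0776) and when only the groups compared were fitted (0.052).

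Of CDC45 and the 4 GINS genes, GINS1 and GINS4 were higher for the mean of both clones, and so was MCM10. GINS1 encodes a subunit of the GINS complex, which binds CDC45 and the MCM ring. GINS1 had 56.7, 62.0 and 58.4 CPM in KO clone 1 and 50.3, 57.0 and 54.4 CPM in KO clone 2, against 47.1, 45.9 and 47.9 CPM in WT. Every KO library exceeded every WT library, and the clones overlapped. Its log2 fold change was 0.27 ± 0.04 (SE; adjusted p = 6.53e-07). GINS4 rose by 0.12 (adjusted p = 0.0417) for the mean of both clones but passed the test in neither clone alone, and GINS2 and GINS3 missed the test. MCM10, which takes part in turning the loaded helicase on, had 65.9, 63.8 and 68.8 CPM in KO clone 1 and 61.7, 62.4 and 62.0 CPM in KO clone 2, against 55.3, 55.8 and 54.5 CPM in WT. The 3 groups were fully separated in the order clone 1, clone 2, WT, with a log2 fold change of 0.215 ± 0.035 (adjusted p = 2.64e-06). CDC45 itself missed the test (log2 fold change 0.06, 95% interval -0.03 to 0.15).

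Among the polymerases other than epsilon, POLA1 rose in both clones. It encodes the catalytic subunit of polymerase alpha, which extends RNA primers. POLA1 had 108, 114 and 115 CPM in KO clone 1 and 111, 112 and 111 CPM in KO clone 2, against 99.3, 103 and 99.2 CPM in WT. The clones overlapped each other and neither overlapped WT, with a log2 fold change of 0.15 ± 0.03 (SE; adjusted p = 4.63e-05). POLD3, an accessory subunit of polymerase delta, rose for the mean of both clones by 0.12 (adjusted p = 0.00515), with 73.4 ± 2.03 CPM in KO clone 1, 67.7 ± 0.239 CPM in KO clone 2 and 64.9 ± 2.37 CPM in WT (SD, n = 3).

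FEN1, the flap nuclease that trims Okazaki fragments, and RPA2, the middle subunit of the single-strand binding complex, completed the set. RPA2 had 40.5, 40.8 and 40.7 CPM in KO clone 1 and 37.5, 38.7 and 37.2 CPM in KO clone 2, against 36.0, 32.2 and 35.0 CPM in WT. All groups were apart, clone 1 highest, and the log2 fold change was 0.19 ± 0.04 (SE; adjusted p = 0.000407). FEN1 had 100, 103 and 100 CPM in KO clone 1 and 96.1, 106 and 109 CPM in KO clone 2, against 92.2, 94.9 and 96.4 CPM in WT. KO clone 2 replicate 1 lay inside the WT range, and the log2 fold change was 0.12 ± 0.03 (adjusted p = 0.0049). LIG1, the ligase that joins the trimmed fragments, and DNA2, a nuclease for long flaps, missed the test at log2 fold changes of -0.03 and -0.02. FEN1 lies within the span of FADS2 on the same strand, and 3.04% of the reads at its exons came from the opposite strand. FEN1 in KO clone 1 alone had an adjusted p of 0.0479 and stayed past the test in 6 of 15 alternatives. It was lost without any single library of KO clone 1 or WT or without KO clone 2 replicate 2, at adjusted p of 0.0518 to 0.178. It was also lost with DESeq2 (0.109) and with no filter on low counts (0.077). In KO clone 2 the FEN1 call (0.00447) was lost without KO clone 2 replicate 3 (0.0777), and the RPA2 call (0.0284) without KO clone 2 replicate 1 (0.0558), KO clone 2 replicate 2 (0.112) or WT replicate 2 (0.207).

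**Figure D3:**
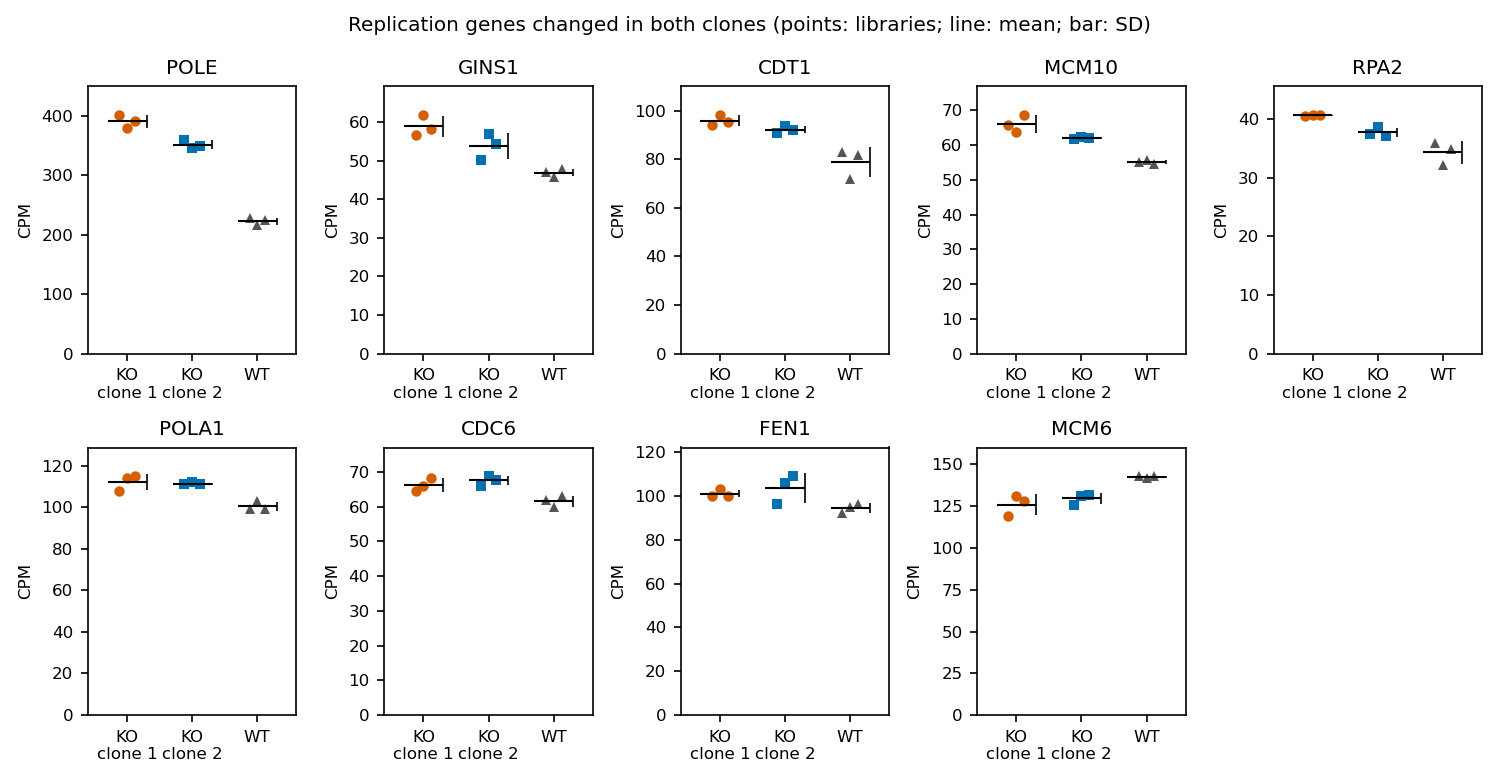
CPM of the 9 replication genes past the test in both clones in the same direction, each panel with its own vertical axis starting at 0; points are libraries, lines are means and bars are SD of 3 libraries. POLE has 346 to 402 CPM in the KO libraries and 216 to 228 CPM in WT, while the other 8 genes differ by small steps.

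MCM6 was the one gene that fell in both clones. It encodes a subunit of the MCM2 to MCM7 ring. MCM6 had 119, 131 and 128 CPM in KO clone 1 and 126, 131 and 132 CPM in KO clone 2, against 143, 142 and 143 CPM in WT. All KO libraries were below all WT libraries, the clones overlapped, and the WT libraries were almost equal. Its log2 fold change of -0.16 ± 0.03 (SE) had an adjusted p of 2.65e-05, and the call held in both clones under all 15 alternative settings.

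The rest of the ring did not follow evenly. MCM3 averaged 208 ± 4.95 CPM in KO clone 1, 214 ± 5.33 CPM in KO clone 2 and 222 ± 0.781 CPM in WT (SD, n = 3); it fell by 0.07 for the mean of both clones (adjusted p = 0.0293), with all 6 KO libraries below WT. MCM2, MCM4, MCM5 and MCM7 missed the test for the mean of both clones, at log2 fold changes between -0.03 and 0.03. Summed over the 6 subunits, the ring had 1363.4 to 1421.0 CPM in KO clone 1 and 1431.2 to 1467.5 CPM in KO clone 2, against 1413.0 to 1452.5 CPM in WT. The highest clone 1 sum exceeded that of WT replicate 2 and no other WT library, and every clone 1 sum lay below every clone 2 sum.

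Sequence around the starts of the genes was examined for motifs of cell cycle promoters. RefSeq promoter windows (GRCh38.p14, 250 bases before to 50 after the annotated start) were matched by symbol for 43 of the 50 genes. The E2F motifs TTTCGCGC and TTTGGCGC, on either strand (GCGCGAAA and GCGCCAAA in reverse), were found in 13 of those 43 (30.2%), against 1.4% of the 27305 genes with a window. CCAAT or its reverse complement ATTGG was in 25 of 43 (58.1%), against 39.7% of all. The motif TTTGAA of the cell cycle genes homology region, or its reverse complement TTCAAA, was in 2 of 43 (4.65%), DBF4 and POLE3, against 18.2% of all. Of the 9 genes changed in both clones, 8 had a window, all but RPA2, and 5 of these held an E2F motif: the risers POLE, GINS1, POLA1 and CDC6, and MCM6, which fell. The windows of these 5 are shown 5′ to 3′ on the gene's strand, since they hold the same kind of motif beside both directions of change. Capitals mark the E2F motifs and CCAAT or ATTGG. They lie at chr12:132687293-132687592 on the minus strand (POLE), chr20:25407423-25407722 on the plus strand (GINS1), chrX:24693668-24693967 on the plus strand (POLA1), chr17:40287629-40287928 on the plus strand (CDC6) and chr2:135876394-135876693 on the minus strand (MCM6).
POLE: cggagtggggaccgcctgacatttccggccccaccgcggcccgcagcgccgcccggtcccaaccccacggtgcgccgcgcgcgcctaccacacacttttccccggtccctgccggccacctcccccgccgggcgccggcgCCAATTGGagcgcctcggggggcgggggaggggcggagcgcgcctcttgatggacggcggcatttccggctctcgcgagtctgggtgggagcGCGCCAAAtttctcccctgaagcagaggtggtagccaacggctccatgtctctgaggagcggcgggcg
GINS1: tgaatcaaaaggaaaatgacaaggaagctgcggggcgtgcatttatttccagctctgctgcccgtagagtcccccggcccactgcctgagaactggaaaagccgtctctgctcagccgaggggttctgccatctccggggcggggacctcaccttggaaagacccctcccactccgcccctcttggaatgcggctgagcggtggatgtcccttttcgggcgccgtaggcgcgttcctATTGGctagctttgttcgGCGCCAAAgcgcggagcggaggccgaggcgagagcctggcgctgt
POLA1: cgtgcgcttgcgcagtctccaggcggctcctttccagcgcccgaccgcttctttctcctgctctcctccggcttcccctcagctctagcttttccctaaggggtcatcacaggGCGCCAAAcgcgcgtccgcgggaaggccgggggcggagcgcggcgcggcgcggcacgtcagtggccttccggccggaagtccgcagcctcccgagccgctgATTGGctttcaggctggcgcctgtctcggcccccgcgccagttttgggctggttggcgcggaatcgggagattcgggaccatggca
CDC6: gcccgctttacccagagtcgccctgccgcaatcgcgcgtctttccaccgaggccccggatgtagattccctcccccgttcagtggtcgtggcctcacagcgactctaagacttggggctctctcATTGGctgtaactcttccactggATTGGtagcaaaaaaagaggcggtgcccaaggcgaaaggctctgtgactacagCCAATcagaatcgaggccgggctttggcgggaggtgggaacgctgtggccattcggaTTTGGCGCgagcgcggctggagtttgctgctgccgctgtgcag
MCM6: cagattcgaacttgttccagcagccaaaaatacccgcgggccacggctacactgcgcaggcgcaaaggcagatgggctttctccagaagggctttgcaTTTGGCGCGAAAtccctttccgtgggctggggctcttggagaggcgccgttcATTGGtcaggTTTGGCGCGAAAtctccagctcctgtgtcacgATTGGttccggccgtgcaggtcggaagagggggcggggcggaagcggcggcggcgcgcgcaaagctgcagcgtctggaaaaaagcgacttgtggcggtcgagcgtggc

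In POLE the E2F motif GCGCCAAA began 18 bases before the start, and its CCAAT and ATTGG overlap in 1 palindrome. In GINS1 and CDC6 the E2F motif lay just past the RefSeq start that set the window. For GINS1 the whole window lies inside the gene span given above, which begins upstream at 25391008. MCM6 carried the run TTTGGCGCGAAA in 2 places, at -152 and -90, where an E2F motif of each kind overlaps the other. The window of CDT1 and that of FEN1 held none of these exact letters, and that of MCM10 held CCAAT in 2 places. A match is a description of these letters only.

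Each clone was next set against WT alone. KO clone 1 had 17 of the 50 genes higher, beside 17.4% of all genes, and 8 lower, beside 18.8%. KO clone 2 had 8 higher, beside 14.4%, and 1 lower, beside 16.1%. Among genes in the same range of CPM, 25.0% were higher and 24.2% lower in clone 1, and 21.8% and 19.5% in clone 2. In clone 1 the calls beyond the 9 shared ones were higher ORC6, MCM8, CDC7, PCNA, RFC4, POLA2, PRIM1, POLD3 and RPA3, and lower ORC2, MCM2, MCM3, GINS2, RFC2, POLD2 and POLE3. The median absolute log2 fold change of the list was 0.10 in clone 1 and 0.06 in clone 2, against 0.19 and 0.16 over all genes. Among genes in the same range of CPM it was 0.127 in clone 1 and 0.105 in clone 2. By role, 3 of the 4 genes of polymerase alpha and primase were higher in clone 1 and 3 of the 6 ring subunits were lower. The count of lower genes in clone 1 was 4 without KO clone 1 replicate 1 or without WT replicate 3, and 5 without KO clone 1 replicate 3.

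**Figure D4:**
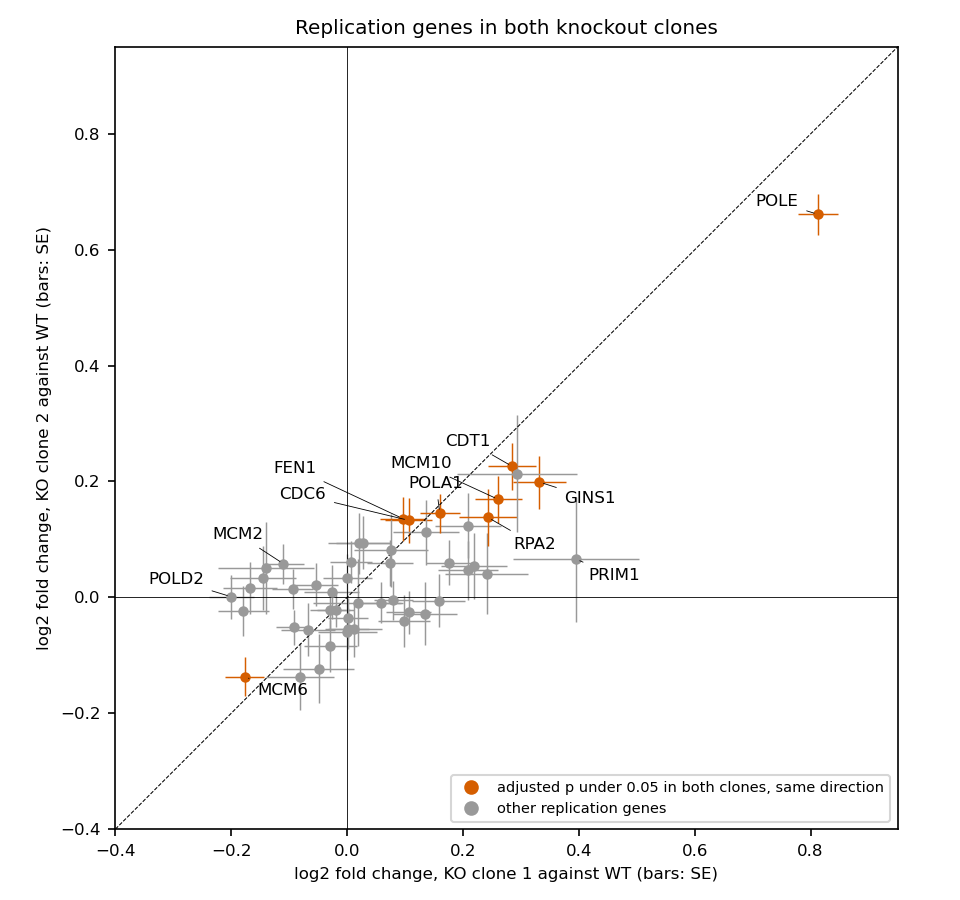
Log2 fold change against WT of each of the 50 replication genes in KO clone 1 (horizontal axis) and KO clone 2 (vertical axis), with bars for the SE and a dashed line of equality; coloured points passed the test in both clones in the same direction. POLE stands alone at 0.81 in clone 1 and 0.66 in clone 2, and MCM6 is the coloured point below zero.

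Whether the clones differed was tested directly. KO clone 2 had 6 of the 50 genes higher than KO clone 1, beside 13.4% of all genes, and 11 lower, beside 12.6%; in the same range of CPM the shares were 20.7% and 18.0%. Higher in clone 2 were ORC2, MCM2, GINS2, RFC2, POLD2 and POLE3, and lower were ORC3, MCM8, GINS1, CDC7, PCNA, RFC4, POLA2, PRIM1, PRIM2, POLD3 and POLE. All 3 clone 2 libraries were below all 3 clone 1 libraries for 16 of the 50 genes, beside 18.8% of all genes, and above them for 8, beside 18.9%. For this count, too, no share was taken within that range of CPM. The count of lower genes was 3 without KO clone 1 replicate 3 and 4 without KO clone 2 replicate 3, and that of higher genes was 3 without KO clone 2 replicate 2.

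PRIM1 had the largest difference between the clones, followed by POLA2 and POLD2 at equal size. PRIM1 encodes the catalytic subunit of primase and POLA2 the regulatory subunit of polymerase alpha. PRIM1 had 6.25, 6.56 and 5.56 CPM in KO clone 2 and 7.54, 7.14 and 8.38 CPM in KO clone 1, beside 5.45, 6.39 and 5.67 CPM in WT. Clone 2 lay within or close to the WT range, and clone 1 was above both. The log2 difference, clone 2 minus clone 1, was -0.33 ± 0.11 (SE; adjusted p = 0.0179). PRIM1 shares a stretch of its strand with NACA, so reads there may have been left out of its count, which was the lowest of the list. POLA2 had 15.4, 14.9 and 15.1 CPM in KO clone 2 and 16.2, 18.3 and 17.6 CPM in KO clone 1, beside 14.6, 15.2 and 14.4 CPM in WT. Clone 1 again stood above the other groups, and the log2 difference was -0.20 ± 0.07 (adjusted p = 0.0307). PRIM2, the other primase subunit, also was lower in clone 2, by a log2 difference of -0.16 (adjusted p = 0.0234), while POLA1 of the same enzyme stood at -0.01 (adjusted p = 0.813). The PRIM1 difference missed the test without KO clone 1 replicate 3 (adjusted p = 0.13) or KO clone 2 replicate 3 (0.123). That of POLA2 missed it without KO clone 1 replicate 2 (0.148), KO clone 1 replicate 3 (0.101), KO clone 2 replicate 2 (0.0955) or KO clone 2 replicate 3 (0.0805). The POLA2 difference also missed it with counts without regard to strand (0.0585) and with no filter on low counts (0.0852).

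In the other direction stood POLD2, RFC2, GINS2 and MCM2. POLD2 had 113, 111 and 112 CPM in KO clone 2 and 97.4, 99.5 and 95.6 CPM in KO clone 1, beside 118, 103 and 115 CPM in WT. Clone 1 lay below every library of the other groups, and the log2 difference was 0.20 ± 0.04 (SE; adjusted p = 9.77e-05). RFC2, a small subunit of the clamp loader, had 45.6, 47.6 and 46.6 CPM in KO clone 2 and 39.2, 42.8 and 41.0 CPM in KO clone 1, beside 44.1, 46.3 and 47.9 CPM in WT. Here too clone 1 alone was low, with a log2 difference of 0.18 ± 0.05 (adjusted p = 0.0023).

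MCM2, a ring subunit that also binds histones, had 255, 254 and 262 CPM in KO clone 2 and 221, 243 and 221 CPM in KO clone 1, beside 250, 240 and 250 CPM in WT. KO clone 1 replicate 2 reached the WT range while the other libraries of that clone were below it. Every clone 2 library lay above every WT library, although clone 2 missed the test against WT (log2 fold change 0.058, adjusted p = 0.22). The log2 difference between the clones was 0.17 ± 0.03 (SE, adjusted p = 0.000217). GINS2, another GINS subunit, had 32.7, 36.4 and 31.6 CPM in KO clone 2 and 29.6, 31.2 and 28.0 CPM in KO clone 1, beside 32.2, 32.5 and 33.6 CPM in WT. The clones were separated by a narrow gap, and the log2 difference of 0.18 ± 0.06 (adjusted p = 0.0151) missed the test without KO clone 1 replicate 3 (0.132) or KO clone 2 replicate 2 (0.184).

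Mitotic genes differed between the clones too. Of 26 genes of G2 phase and mitosis, such as the kinase PLK1 and the cyclin CCNB1, 23 were lower in clone 2 than in clone 1, beside 12.6% of all genes. Against WT, 18 of them were higher in clone 1, beside 17.4% of all genes, and 14 were lower in clone 2, beside 16.1%. Their summed level was 3368.3 to 3445.9 CPM in KO clone 2 and 3877.9 to 4142.8 CPM in KO clone 1, beside 3704.5 to 3800.3 CPM in WT, with no overlap between groups. The median log2 difference, clone 2 minus clone 1, was -0.22 for the mitotic genes and -0.03 for the replication genes. The mitotic gene of smallest adjusted p against WT for the mean of both clones was UBE2C, a ubiquitin-conjugating enzyme of the anaphase pathway. Its log2 fold change was -0.23 for that mean (adjusted p = 8.82e-05). The fall was called in KO clone 2 alone (-0.398, adjusted p = 1.06e-07), and KO clone 1 missed the test (-0.066, adjusted p = 0.385). The part of the mitotic values in the differences of the replication genes was not tested.

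**Figure D5:**
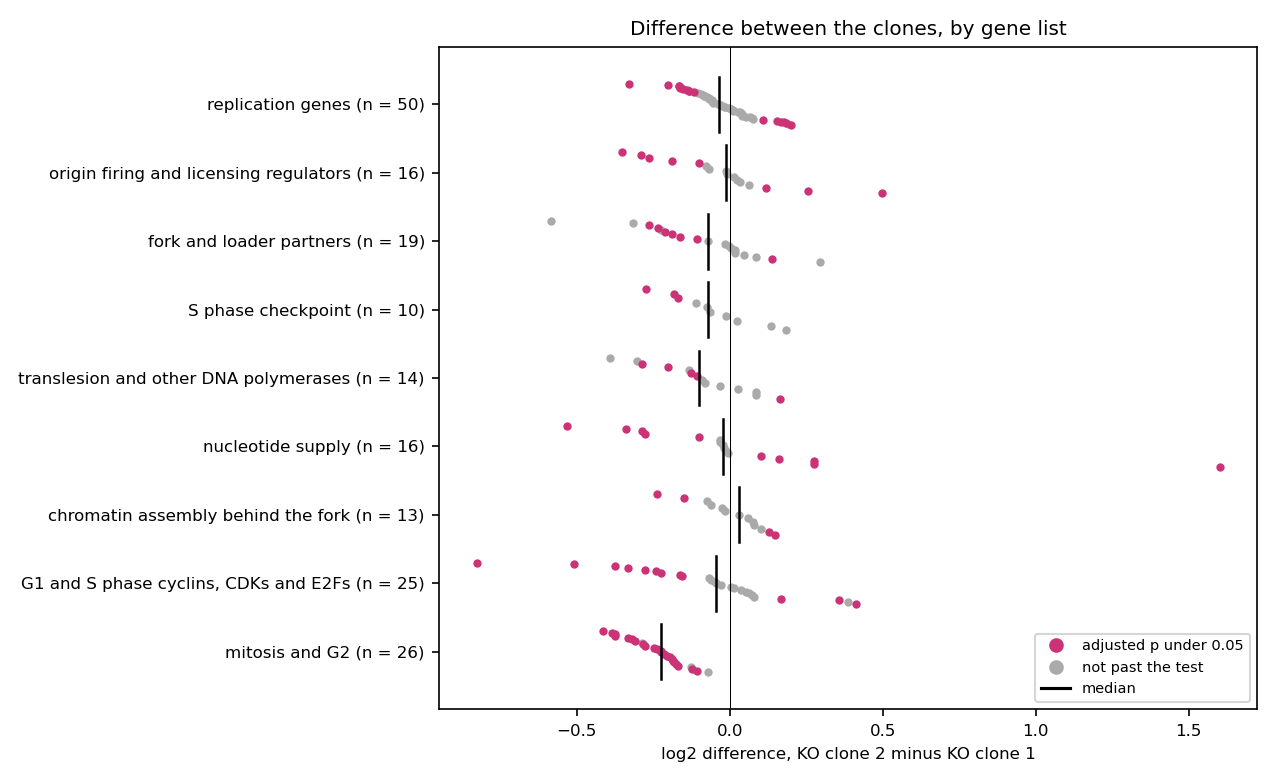
Log2 difference, KO clone 2 minus KO clone 1, of each gene in the 50 replication genes and in 8 lists of related genes (horizontal axis); coloured points passed the test and the black bar is the list's median. The replication genes spread to both sides of zero around a median of -0.03, and the mitosis and G2 list lies to the left with a median of -0.22.

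Most replication genes missed the test. For the mean of both clones, 32 of the 50 missed it. For 31 of these the 95% interval of the log2 fold change lay within 0.3 of zero, and PRIM1 reached 0.41. The called changes other than POLE were also smaller than 0.3, so such an interval does not exclude a change of their size. Of ORC, only ORC6, the subunit least tightly held in the complex, rose (log2 fold change 0.17, adjusted p = 0.00661) and only ORC2 fell (-0.10, adjusted p = 0.0332), and the summed level of the 6 genes was 226.59 to 233.12 CPM in KO clone 1 and 223.75 to 230.8 CPM in KO clone 2, against 229.15 to 235.13 CPM in WT. DBF4 and CDC7, the kinase that fires origins, were at -0.03 and 0.08. PCNA was at 0.04 and its loader subunits RFC1, RFC2, RFC3 and RFC5 between -0.08 and 0.07, while RFC4 rose by 0.14 (adjusted p = 0.0273). POLD1 was at 0.06, RPA1 at 0.02 and TYMS, the source of thymidylate, at -0.02. RPA3, where 18.8% of the reads came from the opposite strand and UMAD1 overlaps, rose by 0.25 (adjusted p = 0.0221), and MCM8, a helicase of recombination repair, by 0.13 (adjusted p = 0.0211). The fork protection genes TIPIN, TIMELESS and CLSPN, which hold a stalled fork together and signal from it, missed the test at -0.05, -0.11 and 0.02; the lowest bound among all genes that missed it was that of TIMELESS, at -0.21. In KO clone 2 alone, 41 genes missed the test, 40 of them with intervals within 0.3 of zero. Among the 41 were ORC2 (log2 fold change -0.024), ORC6 (0.124), RFC4 (0.054), RPA3 (0.213) and MCM8 (0.047), all of which were called in KO clone 1. ORC2, RFC4 and MCM8 also differed between the clones by the direct test.

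Factors that work beside these genes but are not among the 50 were counted in the same way. Of 88 such genes in 6 lists, 25 were higher and 11 lower for the mean of both clones, with a median log2 fold change of 0.02. That is 28.4% higher and 12.5% lower, beside 16.4% and 18.9% of all genes and 24.2% and 23.1% of those in the CPM range of the 50 genes. Fork and loader partners had 6 of 19 higher and 2 lower, nucleotide supply 6 of 16 and 2, and translesion and other polymerases 4 of 14 and 4. Chromatin assembly factors had 4 of 13 higher, S phase checkpoint genes 3 of 10 higher and 1 lower, and origin firing regulators 2 of 16 and 2. The gene of smallest adjusted p is named for each list. SAMHD1, which breaks down deoxynucleotides, had 0.90 to 1.23 CPM in KO clone 1 and 2.88 to 3.37 CPM in KO clone 2, against 8.20 to 8.66 CPM in WT, a log2 fold change of -2.24 (adjusted p = 9.11e-21). DSCC1, part of an alternative PCNA loader, rose by 0.27 (adjusted p = 1.41e-07), CDC25A, a phosphatase that activates S phase CDKs, by 0.18 (adjusted p = 0.000145), and CHAF1A, a histone chaperone at the fork, by 0.17 (adjusted p = 7.36e-06). MCMBP, a partner of the MCM proteins, fell by 0.24 (adjusted p = 2.94e-07) and POLG, the mitochondrial polymerase, by 0.23 (adjusted p = 1.47e-08). Among 25 cyclins, CDKs, E2Fs and their inhibitors of G1 and S phase, 8 (32.0%) were higher and 5 (20.0%) lower. The inhibitor gene CDKN2C had the smallest adjusted p, with 117 to 129 CPM in KO clone 1 and 109 to 123 CPM in KO clone 2, against 68.0 to 69.5 CPM in WT (log2 fold change 0.81, adjusted p = 8.29e-21).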

How the data were processed

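RNA of 9 KG-1a libraries, 3 per group, was sequenced in pairs; per the labels and the series text the authors aligned reads to GRCh38 with STAR and counted them per gene. The deposited counts are raw and come with 3 ways of handling strand; the counting for the strand that held 92.03% to 92.31% of stranded counts was used. The authors' table gives log2 fold changes and adjusted p-values from DESeq2 (a low-count filter and shrunken fold changes, per the series text). It holds the counting without regard to strand in 9 of 9 columns. The authors' log2 value and p-value are printed for POLE only. For the other genes of the list, only whether the authors' adjusted p was under 0.05 is stated. The STAR version and the annotation release are not given in the sources used here.

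Counts were filtered by group (edgeR filterByExpr, 20655 of 60605 genes), scaled by TMM and tested with edgeR 4.0.16 in R 4.3.3 (quasi-likelihood, robust, 1 coefficient per group, all 9 libraries in 1 fit). Calls are at an adjusted p under 0.05; SE is the log2 fold change over the root of F, and 95% intervals are 1.96 SE. The fit was also run on simulated data with planted changes larger than those called for any replication gene but POLE. That run therefore does not bear on calls of the smaller sizes. CPM use the TMM-scaled library size. A count of 0 allows up to 3 counts, or 0.0701 to 0.11 CPM by library; this covers counting error only, since PCR copies are not marked. Lengths come from GENCODE (GRCh38) and promoters from RefSeq.

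The genes and lists were chosen with earlier results of these data known. Library values are given for up to 8 risers and 6 fallers called in both clones and the 6 largest called clone differences; other lists are represented by their gene of smallest adjusted p. Alternatives were counts without regard to strand, DESeq2 size factors, DESeq2 1.42.0, no low-count filter, a replicate block, a fit of only the groups compared, and each library left out.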

Additional observations from a re-analysis of the deposited data

Results flagged for a closer look

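Of the genes described library by library, 8 differed between the clones by the direct test (edgeR, all genes adjusted together). The log2 differences, clone 2 minus clone 1, were -0.152 for POLE (adjusted p = 0.000754), -0.133 for GINS1 (0.0262), -0.329 for PRIM1 (0.0179), -0.201 for POLA2 (0.0307), 0.201 for POLD2 (9.77e-05), 0.184 for RFC2 (0.0023), 0.179 for GINS2 (0.0151) and 0.168 for MCM2 (0.000217). Every difference was under 0.5 in size, the size fixed for a closer look, so none of them met that rule. They are listed because they passed the direct test. POLE, POLD2, RFC2 and MCM2 passed the test under all 15 alternatives, while GINS1 passed under 10, PRIM1 and GINS2 under 13, and POLA2 under 9. For POLE and GINS1 both clones were above WT and differed in size. For PRIM1, POLA2, POLD2, RFC2 and GINS2 the clone 2 libraries lay near WT and clone 1 stood apart. Clone 1 was above WT for PRIM1 and POLA2 and below it for POLD2, RFC2 and GINS2. For MCM2, clone 1 was below WT except for replicate 2, and every clone 2 library was above every WT library. The summed level of 26 mitotic genes was also lower in every clone 2 library than in every clone 1 library, and its part in these differences was not tested.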

How the results depend on the processing

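For the genes described library by library, 30 of 42 calls held under all 15 alternatives, and no called value changed direction. Counts without regard to strand gave 2 lower genes in KO clone 2 (MCM6 and RFC5) in place of 1. With both clones fitted as a single group, the mean contrast called 7 higher genes and 1 lower in place of 14 and 4; spread between the clones then enters the error by construction. Leaving out each library in turn gave 11 to 14 higher and 1 to 4 lower genes for the mean of both clones, 13 to 17 and 4 to 8 in KO clone 1, 7 to 8 and 1 to 2 in KO clone 2, and 3 to 6 and 3 to 12 in KO clone 2 against KO clone 1; both clones shared 7 to 8 calls in place of 9, and the median ran from 0.026 to 0.041. The second lower gene in KO clone 2 was GINS3, without WT replicate 2. Replicate numbers did not pair the libraries (correlations of deviations between -0.014 and 0.012); with the replicate block 14 genes were higher and 4 lower for the mean, 19 and 8 in KO clone 1, 8 and 1 in KO clone 2, and 6 and 12 between the clones. Low-count members limit what can be seen: the SE ran from 0.0263 to 0.0938 for the mean contrast, largest for PRIM1.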
